A study of Homo sapiens with 9 samples.

Results

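Regulators of MYCN protein stability were followed as transcripts in LAN5 cells, a human neuroblastoma line that carries MYCN amplification. The group comprised 7 genes, which were the rows of the deposited expression table with the symbols AURKA, PLK1, GSK3B, FBXW7, HUWE1, USP7 and USP28. All 7 were among the 25084 rows of the table, and all 7 passed the filter on low values that left 14495 genes for testing. By electroporation, LAN5 cells were given siRNAs that were either a control (siCTR) or directed at MYCN (siMYCN) or HAND2 (siHAND2), and total RNA was taken 72 h later, with 3 libraries in each group. All groups were grown in the same serum-containing medium and went through the same electroporation. Each target was represented by a single siRNA, labelled SiMYCN_2 and SiHAND2_3, so an effect of the target and an effect of that siRNA alone cannot be told apart. The labels do not say whether replicates came from separate cultures, so the p-values below measure the spread between these libraries, which may be technical.

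MYCN is a transcription factor whose protein is kept short-lived by a chain of phosphorylation and ubiquitination. Cyclin B with CDK1 primes a degron on MYCN, GSK3B adds the second phosphate, and the doubly marked protein is recognised by FBXW7, the substrate receptor of an SCF ubiquitin ligase. AURKA binds MYCN and shields it from FBXW7, PLK1 drives degradation of FBXW7 itself, HUWE1 is a HECT-type ligase that also ubiquitinates MYCN, and USP7 and USP28 are deubiquitinases that can remove ubiquitin from MYC proteins. RNA was measured here, and no protein level or kinase activity. Values are CPM, the count of a gene scaled to the total assigned reads of its library, and in RNA from whole cultures fewer cells of a type and less RNA per cell cannot be told apart.

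The knockdown of the targets sets the frame for these genes. With 3 libraries a group, MYCN averaged 1842 ± 54.2 CPM in siCTR, 1289 ± 47.0 CPM after siMYCN and 914 ± 48.4 CPM after siHAND2 (SD). MYCN RNA was therefore at 70.0% of the control level after siMYCN and at 49.6% after siHAND2, so the siMYCN libraries held more MYCN RNA than the siHAND2 libraries. HAND2, a bHLH transcription factor of sympathetic neurons, averaged 501 ± 13.7 CPM in siCTR, 571 ± 15.9 CPM after siMYCN and 272 ± 7.65 CPM in siHAND2. The MYCN libraries of the 3 groups did not overlap, and neither did those of HAND2. HAND2-AS1, on the opposite strand across HAND2, averaged 346 CPM over the 9 libraries. Strand use in the counting is not given, so reads of HAND2 and HAND2-AS1 where they overlap may not be told apart.

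Differences were tested with limma on log2(CPM + 1), fitted over all 14495 genes and all 9 libraries, and called at a Benjamini-Hochberg adjusted p under 0.05. Fold changes are on that log2 scale, and libraries are listed in the order of replicates 1, 2 and 3. In siMYCN against siCTR, GSK3B rose, PLK1 fell and the other 5 members were not called, while 35.9% of all genes tested were called. In siHAND2 against siCTR, GSK3B rose, PLK1 and USP7 fell and the other 4 were not called, against 29.9% of all genes. Both comparisons used the same siCTR libraries. In siHAND2 against siMYCN, USP28 was higher, USP7 was lower and the other 5 were not called, against 26.9% of all genes.

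Taken by direction, 24.5% of all genes were called higher and 11.4% lower in siMYCN against siCTR, and 18.1% and 11.8% in siHAND2 against siCTR. These splits depended on scaling. The share of calls that were higher was 68.3% in siMYCN against siCTR, and became 51.2% once libraries were rescaled by median ratios and 49.3% once they were quantile-normalized. It was 60.6%, 47.1% and 47.8% in siHAND2 against siCTR. Regardless of sign, the members' median log2 change was 0.12 after siMYCN and 0.11 after siHAND2, near the medians of all genes, 0.14 and 0.12. The largest difference of a member from siCTR, called or not, was 0.27 on the log2 scale.

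**Figure D1:**
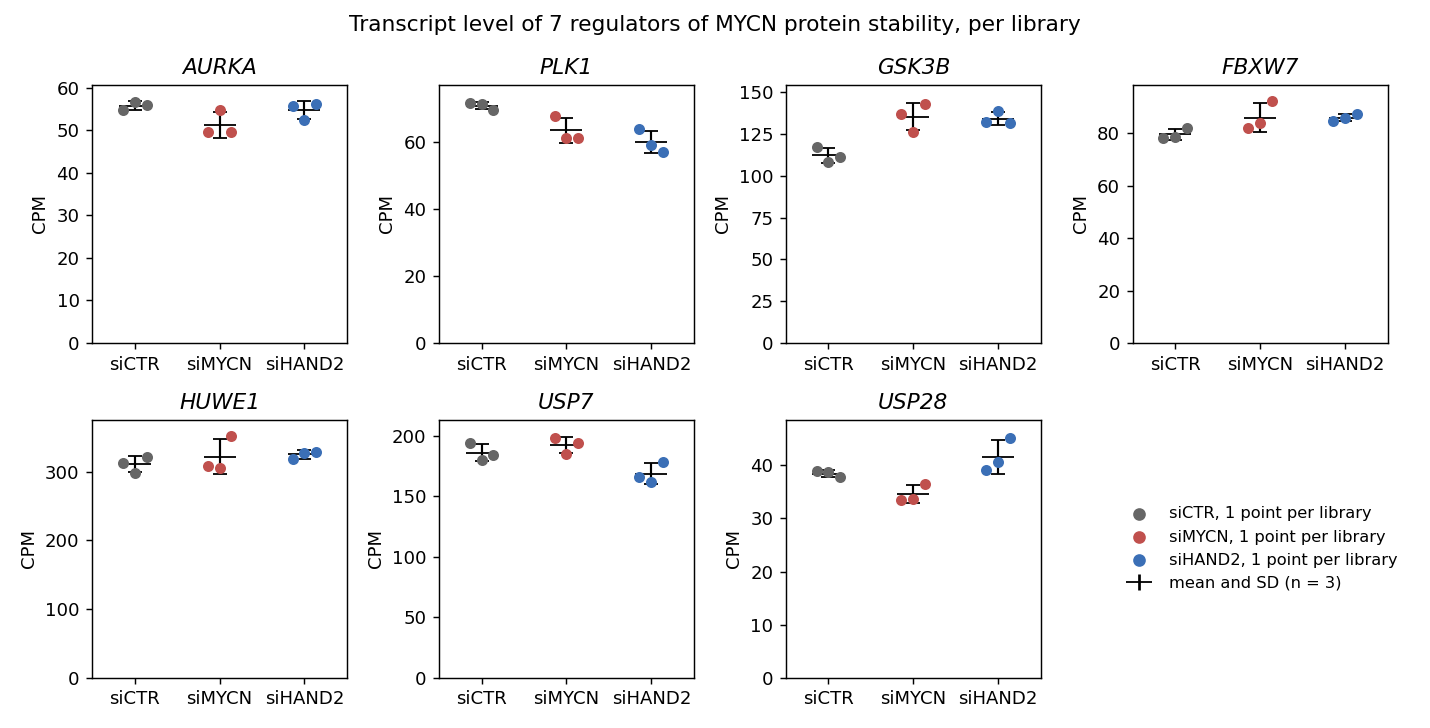
CPM of the 7 members (vertical axis, from 0) in siCTR, siMYCN and siHAND2 (horizontal axis), with 1 point per library and black bars for the mean and SD of 3 libraries. GSK3B sits between 108.3 and 117.5 CPM in siCTR and above 126 CPM in every library of the other groups, and PLK1 lies below every siCTR library in both knockdowns.

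**Figure D2:**
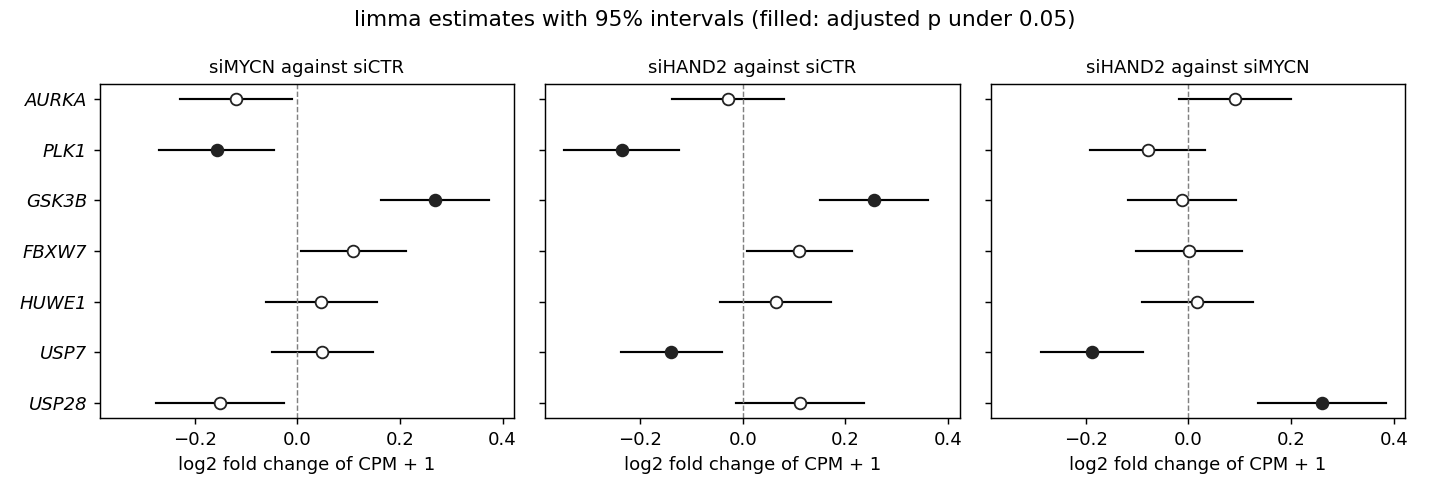
limma log2 fold change of CPM + 1 (horizontal axis) with its 95% interval for each member (rows) in the 3 comparisons; filled points have an adjusted p under 0.05. USP7 and USP28 separate the knockdowns from each other, whereas GSK3B and PLK1 are filled in both comparisons with siCTR.

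To compare genes with each other, CPM was divided by the length in kilobases of each gene's canonical transcript. In siCTR, PLK1 stood at 32.9 ± 0.51 CPM per kb, USP7 at 31.9 ± 1.23 and AURKA at 27.4 ± 0.49 (SD, n = 3). HUWE1 followed at 21.2 ± 0.80 CPM per kb, GSK3B at 14.5 ± 0.60, FBXW7 at 14.1 ± 0.38 and USP28, the scarcest, at 7.92 ± 0.13. PLK1 and USP7 overlapped between libraries, as did GSK3B and FBXW7, and the other neighbours in that order were separate. MYCN itself was at 705 ± 20.7 CPM per kb, far above every one of its regulators.

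The means of PLK1 and USP7 changed places in the knockdowns, but their libraries were separate only after siMYCN. After siMYCN, USP7 led at 33.0 CPM per kb and PLK1 followed at 29.4, with ranges of 31.72 to 34.06 and 28.44 to 31.43 that did not overlap. After siHAND2, USP7, PLK1 and AURKA lay at 29.0, 27.9 and 26.9 CPM per kb, with libraries that overlapped between neighbours. GSK3B drew away from FBXW7 after siHAND2, from 16.99 to 17.92 against 15.02 to 15.47 CPM per kb, and touched it after siMYCN, from 16.35 to 18.48 against 14.54 to 16.35. USP28 stayed the lowest in all 3 groups.

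GSK3B, the kinase that completes the degron mark, lies on chromosome 3 at 119821321-120094447 on the minus strand (GRCh38). Its CPM was 117.5, 108.3 and 111.1 in siCTR, 137.1, 126.6 and 143.1 with siMYCN and 132.4, 138.7 and 131.6 with siHAND2. Every knockdown library was above every control library, while the siMYCN and siHAND2 libraries overlapped. GSK3B was 20.7% higher after siMYCN (log2 fold change 0.27, SE 0.05, limma adjusted p = 0.000544) and 19.5% higher after siHAND2 (0.26, SE 0.05, limma adjusted p = 0.000996). The difference between the knockdowns was -0.01 with a 95% interval from -0.12 to 0.09. Of the 7 members, GSK3B was the one called in both comparisons with siCTR under all 18 alternatives.

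PLK1, a mitotic kinase, lies on chromosome 16 at 23677656-23690367 on the plus strand (GRCh38). Its CPM was 71.7, 71.5 and 69.7 in siCTR, 67.9, 61.4 and 61.4 with siMYCN and 63.9, 59.3 and 57.3 with siHAND2. All 6 knockdown libraries were below the lowest control, and siMYCN replicate 1 was the closest to it. PLK1 fell by 10.4% after siMYCN (log2 fold change -0.16, SE 0.05, limma adjusted p = 0.0288) and was at a mean of 60.2 ± 3.40 CPM after siHAND2 against 71.0 ± 1.10 in siCTR (-0.24, SE 0.05, limma adjusted p = 0.00298). The difference between the knockdowns was -0.08 (95% interval -0.19 to 0.03, limma adjusted p = 0.296). The siMYCN call was lost without siCTR replicate 1 (limma adjusted p = 0.0853), siCTR replicate 2 (0.0859), siMYCN replicate 2 (0.104) or siMYCN replicate 3 (0.110), and with no intensity trend (0.0678).

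AURKA, the kinase that shields MYCN from FBXW7, lies on chromosome 20 at 56369389-56392337 on the minus strand (GRCh38). Its CPM was 54.7, 56.6 and 56.0 in siCTR, 49.7, 54.8 and 49.4 with siMYCN and 55.6, 52.3 and 56.1 with siHAND2. The second siMYCN library lay inside the control range, and the other 2 lay below it. The log2 fold change after siMYCN was -0.12 (SE 0.05, 95% interval -0.23 to -0.01, limma adjusted p = 0.0834), which was not called. After siHAND2 it was -0.03 (95% interval -0.14 to 0.08, limma adjusted p = 0.717). AURKA passed the threshold after siMYCN once that second library was left out (-0.17, limma adjusted p = 0.0260), and also after median-ratio rescaling (-0.18, limma adjusted p = 0.0148) or quantile normalization (-0.17, limma adjusted p = 0.0220). Reads of the AURKA pseudogene AURKAP1 were at 0.112 to 0.761 CPM.

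AURKA and PLK1 are both made mainly in G2 and mitosis, so each was also expressed relative to a list of 28 other G2/M genes in the same library. The mean of the list, as CPM, ranged from 125.6 to 133.6 across the 9 libraries. PLK1 minus the list mean was -0.86 ± 0.03 log2 units in siCTR, -1.03 ± 0.10 after siMYCN and -1.08 ± 0.12 after siHAND2 (SD, n = 3). PLK1 was thus lower against this list in every knockdown library than in any control library, by 0.17 after siMYCN and 0.22 after siHAND2. The log2 fold changes of PLK1 itself were -0.16 and -0.24, so these differences are not separate evidence. How many other genes separate in this way against the list was not counted. CCNB1 and AURKB, counted below in other lists, were not part of this list. Both differences had an exact two-sided permutation p = 0.1, the smallest that 3 against 3 libraries allow. With the list median in place of the mean, exact permutation p was 0.2 for both. AURKA minus the list mean was -1.21 ± 0.04 in siCTR, -1.34 ± 0.06 after siMYCN and -1.22 ± 0.04 in siHAND2. The siMYCN libraries lay below all others (exact two-sided permutation p = 0.1 against siCTR and against siHAND2), and siHAND2 and siCTR overlapped (exact permutation p = 0.6). With the list median, the siMYCN differences of AURKA had exact permutation p = 0.2 against siCTR and against siHAND2.

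**Figure D3:**
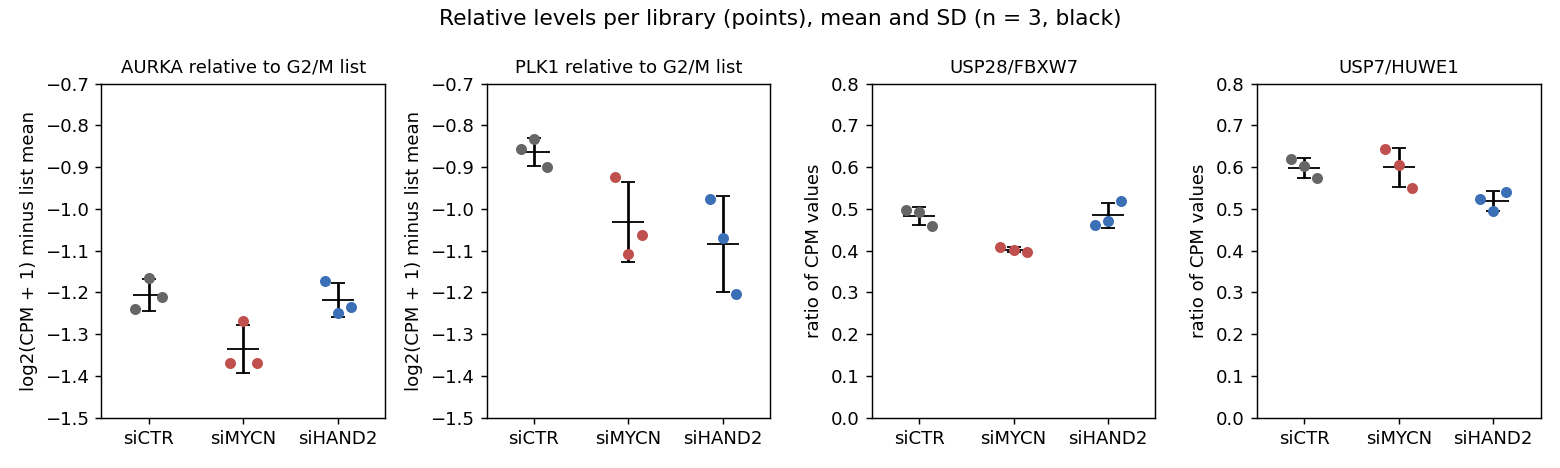
Left pair: log2(CPM + 1) of AURKA and PLK1 minus the mean of 28 G2/M genes (vertical axis); right pair: CPM ratios USP28/FBXW7 and USP7/HUWE1 (vertical axis, from 0), with points for libraries and bars for mean and SD of 3 libraries in each group. The siMYCN libraries are lowest for USP28/FBXW7 (0.396 to 0.408) and the siHAND2 libraries are lowest for USP7/HUWE1 (0.494 to 0.541).

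Promoters are shown for GSK3B and PLK1, called in both comparisons with siCTR, and for USP28, which differed most between the knockdowns. They were searched because MYCN belongs to the factors that bind the E-box CACGTG, and because G2/M genes often carry a cell cycle homology element, TTTGAA or TTCGAA. Promoter windows of 300 bases, from 250 before to 50 after the gene start, were taken from RefSeq (GRCh38.p14) and searched on both strands, and 6 of the 7 members had an entry. CACGTG was present in 7.26% of all 35116 promoter windows, TTTGAA in 15.2% and TTCGAA in 1.45%. PLK1 had CACGTG 198 bases and TTTGAA 29 bases before its start, USP28 had CACGTG 174 bases before its start, and the GSK3B window held none of these motifs. The 250 bases before the start follow, 5′ to 3′ along the gene's strand, with CACGTG and TTTGAA in capitals. They cover chr16:23678639-23678888 on the plus strand for PLK1, chr11:113875573-113875822 on the minus strand for USP28 and chr3:120094448-120094697 on the minus strand for GSK3B.
PLK1: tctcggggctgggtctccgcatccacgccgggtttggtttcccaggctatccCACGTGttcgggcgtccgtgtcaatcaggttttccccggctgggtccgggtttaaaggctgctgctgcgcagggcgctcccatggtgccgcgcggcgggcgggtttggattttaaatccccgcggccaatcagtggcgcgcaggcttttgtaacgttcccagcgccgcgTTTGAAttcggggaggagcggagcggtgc
USP28: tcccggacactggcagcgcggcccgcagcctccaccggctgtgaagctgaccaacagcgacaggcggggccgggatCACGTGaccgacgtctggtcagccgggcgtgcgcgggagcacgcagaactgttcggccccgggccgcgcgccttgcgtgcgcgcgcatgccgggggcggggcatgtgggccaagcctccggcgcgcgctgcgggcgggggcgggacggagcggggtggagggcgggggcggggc
GSK3B: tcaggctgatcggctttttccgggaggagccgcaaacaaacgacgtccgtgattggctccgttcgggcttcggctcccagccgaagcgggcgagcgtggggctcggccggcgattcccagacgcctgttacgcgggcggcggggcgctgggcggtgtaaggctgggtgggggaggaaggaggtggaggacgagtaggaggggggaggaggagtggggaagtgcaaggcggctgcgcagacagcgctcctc
The PLK1 interval of the deposited table begins upstream of the RefSeq start, so its window lies inside that interval. In the other windows, 1 of the 4 listed for FBXW7 held TTTGAA, 210 bases before its start, and the windows listed for HUWE1 and USP7 held neither it nor CACGTG. The looser E-box CANNTG, which includes CACGTG, was in 68.7% of all windows. A match describes these letters and not a bound site.

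FBXW7, the receptor that reads the degron, lies on chromosome 4 at 152320544-152536092 on the minus strand (GRCh38). Its CPM was 78.3, 78.5 and 82.1 in siCTR, 82.0, 83.9 and 92.2 with siMYCN and 84.7, 86.0 and 87.2 with siHAND2. The siHAND2 libraries were all above the controls, and the lowest siMYCN library lay just under the highest control. The log2 fold change was 0.11 in both comparisons, with a 95% interval from 0.01 to 0.21 in each, and limma adjusted p = 0.0926 after siMYCN and 0.1 after siHAND2, so neither was called. The 3 siMYCN libraries spread over 5.41 CPM (SD), mostly through replicate 3. Without that library the siMYCN value was 0.0585, and it was 0.0515 with median-ratio rescaling and 0.0462 with quantile normalization. The siHAND2 value was 0.0695 with median-ratio rescaling. With the replicate number as a block in the fit, both FBXW7 values passed the threshold (limma adjusted p = 0.0451 after siMYCN and 0.0487 after siHAND2).

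HUWE1, the HECT-type ligase, lies on chromosome X at 53532096-53686728 on the minus strand (GRCh38) and had the highest CPM of the group. Its CPM was 313, 299 and 322 in siCTR, 308, 306 and 352 with siMYCN and 319, 328 and 330 with siHAND2. Libraries of all groups overlapped. The log2 fold change was 0.05 after siMYCN (95% interval -0.06 to 0.15, limma adjusted p = 0.512) and 0.06 after siHAND2 (95% interval -0.04 to 0.17, limma adjusted p = 0.375). No change of HUWE1 was detected, and a shift of up to about 0.17 on the log2 scale lies inside these intervals.

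USP7, a deubiquitinase of MYCN and other nuclear proteins, lies on chromosome 16 at 8892097-8975328 on the minus strand (GRCh38). Its CPM was 193.9, 179.8 and 184.6 in siCTR, 198.6, 184.9 and 194.0 with siMYCN and 166.4, 162.1 and 178.2 with siHAND2. The siHAND2 libraries lay below all others, and siMYCN overlapped siCTR. USP7 fell by 9.24% after siHAND2 (log2 fold change -0.14, SE 0.05, limma adjusted p = 0.0331) and differed by 0.05 after siMYCN (95% interval -0.05 to 0.15, limma adjusted p = 0.449). The direct difference between siHAND2 and siMYCN was -0.19 (SE 0.05, limma adjusted p = 0.00642) and was called under all 18 alternatives.

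The call of USP7 in siHAND2 against siCTR was less firm than that difference. It was lost without siCTR replicate 1 (log2 fold change -0.11, limma adjusted p = 0.153), siCTR replicate 3 (limma adjusted p = 0.0637), siHAND2 replicate 1 (0.0805) or siHAND2 replicate 2 (0.137), with no filter (0.0529) and with no intensity trend (0.0929).

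USP28, the deubiquitinase that acts on MYC proteins through FBXW7, lies on chromosome 11 at 113797874-113875570 on the minus strand (GRCh38). Its CPM was 38.9, 38.7 and 37.7 in siCTR, 33.4, 33.7 and 36.5 with siMYCN and 39.1, 40.6 and 45.2 with siHAND2. The 3 groups did not overlap: siMYCN was lowest, siCTR in the middle and siHAND2 highest. The difference from siCTR was -0.15 after siMYCN (SE 0.06, 95% interval -0.28 to -0.03, limma adjusted p = 0.0570) and 0.11 after siHAND2 (95% interval -0.01 to 0.24, limma adjusted p = 0.172), neither of them called. The siHAND2 value was 0.0512 without siHAND2 replicate 3 and 0.071 with median-ratio rescaling. Between siHAND2 and siMYCN the difference was 0.26 (SE 0.06, 95% interval 0.14 to 0.39, limma adjusted p = 0.0033), the largest of the 7 members in that comparison, and it was called under all 18 alternatives. The siMYCN value passed the threshold in 8 of 18 alternatives, among them median-ratio rescaling (-0.21, limma adjusted p = 0.00946), quantile normalization (-0.20, limma adjusted p = 0.0153) and leaving out siMYCN replicate 3 (-0.19, limma adjusted p = 0.0398), siHAND2 replicate 1 (limma adjusted p = 0.0458) or siHAND2 replicate 3 (0.0199).

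Groups that did not overlap were common in the table. In siMYCN against siCTR this held for 3 of the 7 members (PLK1, GSK3B and USP28) and for 49.5% of all genes tested. In siHAND2 against siCTR it held for 5 members, all but AURKA and HUWE1, and for 42.4% of all genes. In siHAND2 against siMYCN it held for USP7 and USP28 and for 38.7% of all genes.

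Pairs of opposed regulators were set beside each other as CPM ratios within a library, as a description with no test. USP28 per FBXW7 was 0.483 ± 0.0205 in siCTR, 0.402 ± 0.00588 after siMYCN and 0.484 ± 0.0303 after siHAND2 (SD, n = 3). Its siMYCN libraries, from 0.396 to 0.408, lay below all other libraries, from 0.459 upwards. USP7 per HUWE1 was 0.598 ± 0.023 in siCTR, 0.600 ± 0.0467 in siMYCN and 0.519 ± 0.0235 in siHAND2, and its siHAND2 libraries were the lowest. PLK1 per FBXW7 was 0.892 in siCTR, 0.742 in siMYCN and 0.700 in siHAND2, and AURKA per FBXW7 was 0.701, 0.599 and 0.636 in the same order. In both of these last ratios, every knockdown library was below every control library. AURKA and FBXW7 were not called on their own in either comparison with siCTR. How many other gene pairs separate the groups in this way was not counted.

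The genes whose pattern over the 9 libraries was most like each member's were taken by Pearson correlation of log2(CPM + 1) among the 11200 genes that averaged 5 CPM or more. Each r below is 1 of the 2 highest from that search over only 9 libraries in 3 groups. How high such picks run by chance was not tested, so r is a description. GSK3B was closest to ZNF664 (r = 0.992) and ZNF778 (r = 0.988), and PLK1 to POLRMT (r = 0.982) and FBXW8 (r = 0.981). USP28 was closest to EGFR (r = 0.990) and DTWD1 (r = 0.982), and USP7 to RNF145 (r = 0.969) and BRI3BP (r = 0.961). FBXW7 was closest to PCDHA9 (r = 0.959) and MRTFB (r = 0.957), AURKA to UQCRC2 (r = 0.951) and NIPSNAP2 (r = 0.947), and HUWE1 to RB1CC1 (r = 0.945) and DYRK2 (r = 0.910). HUWE1 had the loosest second match of the 7.

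Lists of genes around these regulators were counted in the same fits. Beside these counts, 24.5% of all genes tested were called higher and 11.4% lower after siMYCN, and 18.1% and 11.8% after siHAND2. No list was tested against these shares. Among 8 partners and relatives of the kinases, 1 rose and 1 fell in each comparison with siCTR. Under both rescalings 1 rose and 3 fell after siMYCN, and 1 rose and 2 fell after siHAND2. PLK2, a stress-responsive polo-like kinase, rose from 166 ± 0.64 CPM in siCTR to 237 ± 6.42 after siMYCN (log2 fold change 0.51, limma adjusted p = 3.9e-07) and 398 ± 23.6 after siHAND2 (1.26, limma adjusted p = 9.15e-12). Its direction was opposite to that of PLK1 in both. AURKB, the chromosomal passenger kinase, fell from 72.8 ± 2.35 CPM to 62.7 ± 3.82 after siMYCN (-0.21, limma adjusted p = 0.0037) and to 65.5 ± 1.62 after siHAND2 (-0.15, limma adjusted p = 0.0336). The siHAND2 call of AURKB was lost without siCTR replicate 2 (0.103), siCTR replicate 3 (0.114), siHAND2 replicate 2 (0.0835) or siHAND2 replicate 3 (0.0646), as limma adjusted p.

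Among 6 genes of degron phosphorylation around GSK3B, none rose and 1 fell after siMYCN, and none was called after siHAND2. With median-ratio rescaling 1 fell after siHAND2, and with quantile normalization none was called there. CCNB1, the cyclin that activates CDK1, was at 164.3 ± 3.17 CPM in siCTR and 149.7 ± 9.35 after siMYCN (log2 fold change -0.14, limma adjusted p = 0.0291), a call lost in 6 of 18 alternatives, with limma adjusted p up to 0.122 without siMYCN replicate 1. It was also lost without siMYCN replicate 3 (0.121), siCTR replicate 1 (0.0551), siCTR replicate 2 (0.0652) or siCTR replicate 3 (0.103). After siHAND2, every CCNB1 library was below every control library, but CCNB1 was not called (-0.10, limma adjusted p = 0.111). It was called there with median-ratio rescaling.

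Of 7 genes of the phosphatase PP2A, which removes the priming phosphate, 2 rose and none fell in each comparison with siCTR. Under both rescalings 1 rose and 1 fell after siMYCN, while the counts after siHAND2 stayed at 2 and 0. The catalytic subunit PPP2CA rose from 196.3 ± 3.82 CPM to 222.1 ± 4.05 after siMYCN (log2 fold change 0.18, limma adjusted p = 0.00157) and 217.4 ± 2.03 after siHAND2 (0.15, limma adjusted p = 0.00714). CIP2A, an inhibitor of PP2A, was at 60.6 ± 2.80 CPM in siCTR and 60.4 ± 4.22 after siMYCN, and rose to 72.4 ± 5.91 after siHAND2 (0.25, limma adjusted p = 0.00622). An inhibitor and a catalytic subunit were thus both among the genes that rose after siHAND2.

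Of 10 genes of the PI3K-AKT-mTOR arm, which restrains GSK3B, 4 rose and none fell after siMYCN, and 2 rose and none fell after siHAND2. With median-ratio rescaling or quantile normalization these counts were 3 and 1. PIK3R1, the regulatory subunit of PI3K, rose from 48.7 ± 2.71 CPM to 62.6 ± 1.44 after siMYCN (log2 fold change 0.36, limma adjusted p = 3.43e-05) and 73.6 ± 1.60 after siHAND2 (0.59, limma adjusted p = 1.43e-07). PDPK1, the kinase that activates AKT, rose from 48.1 ± 1.65 to 61.1 ± 3.64 CPM after siMYCN (0.34, limma adjusted p = 0.000273). AKT1, a kinase that phosphorylates and inhibits GSK3B, rose from 159.5 ± 2.09 to 198.8 ± 9.96 CPM after siMYCN (0.31, limma adjusted p = 0.000171) and was at 170.3 ± 11.8 CPM after siHAND2 (0.09, limma adjusted p = 0.191). AKT1 was lower in siHAND2 than in siMYCN (-0.22, limma adjusted p = 0.00363).

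None of the 6 core SCF genes was called in either comparison with siCTR. Under both rescalings 1 of the 6 was called lower in each. Among 8 other ubiquitin ligases that act on MYC proteins, 1 rose and 2 fell after siMYCN, and 2 rose and 2 fell after siHAND2. Under both rescalings none of these ligases rose and 2 fell after siMYCN. FBXO32, a muscle-atrophy F-box protein, fell from 8.40 ± 0.16 CPM to 5.77 ± 0.66 after siMYCN (log2 fold change -0.48, limma adjusted p = 0.0011) and 4.90 ± 0.56 after siHAND2 (-0.68, limma adjusted p = 5.77e-05). SKP2, an F-box protein that promotes cell cycle entry, fell from 137.4 ± 2.12 CPM to 119.2 ± 0.62 (-0.20, limma adjusted p = 0.00212) and 111.0 ± 6.40 (-0.31, limma adjusted p = 7.32e-05). TRIM32, a RING ligase of neural progenitors, was at 25.5 ± 2.09 CPM in siCTR and 25.2 ± 1.00 after siMYCN, and rose to 34.2 ± 1.37 after siHAND2 (0.41, limma adjusted p = 0.000122). Its difference between the knockdowns was 0.42 (limma adjusted p = 8.67e-05).

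Of 7 other deubiquitinases, 1 rose and 2 fell in each comparison with siCTR. Part of these counts was not firm. USP3, a histone deubiquitinase, was one of the 2 lower genes in each, and its call was lost in 10 of 18 alternatives after siMYCN and in 9 of 18 after siHAND2, including without any 1 of the 3 siCTR libraries (limma adjusted p = 0.101 to 0.123 after siMYCN and 0.091 to 0.118 after siHAND2). USP22, the higher gene, lost its siHAND2 call in 8 of 18, with limma adjusted p = 0.135 after median-ratio rescaling and 0.0524 to 0.126 without siCTR replicate 1, 2 or 3 or siHAND2 replicate 1 or 2. USP36, the nucleolar deubiquitinase of MYC, fell from 29.2 ± 1.35 CPM to 23.3 ± 1.64 after siMYCN (log2 fold change -0.32, limma adjusted p = 0.00237) and 23.8 ± 2.13 after siHAND2 (-0.29, limma adjusted p = 0.00567). USP22, the SAGA complex deubiquitinase, rose from 422.6 ± 8.86 to 502.0 ± 28.0 CPM after siMYCN (0.25, limma adjusted p = 0.00117). The siMYCN and siHAND2 libraries of USP36 overlapped, and both groups lay below siCTR.

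Of 6 partners described as protecting MYCN, 1 rose and 2 fell after siMYCN, and 2 rose and 2 fell after siHAND2. Under both rescalings the siHAND2 counts were 1 and 3. MYCNOS, the transcript antisense to MYCN, was at 45.7 ± 0.30 CPM in siCTR, 61.7 ± 5.92 after siMYCN (log2 fold change 0.42, limma adjusted p = 0.000335) and 27.9 ± 3.03 after siHAND2 (-0.70, limma adjusted p = 2.11e-06). Strand use in the counting is not given in the sources used here, so reads of MYCN and MYCNOS where they overlap may not be told apart. EZH2, the PRC2 methyltransferase, was at 60.0 ± 1.68 CPM in siCTR and 61.7 ± 2.39 after siMYCN, and rose to 76.7 ± 1.67 after siHAND2 (0.35, limma adjusted p = 2.58e-05). PA2G4, a proliferation-associated protein that binds MYCN, fell from 244.0 ± 0.85 to 202.9 ± 4.29 CPM after siMYCN (-0.26, limma adjusted p = 8.28e-05).

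Cell cycle genes gave the setting for the mitotic kinases. Of 28 G2/M genes, 2 rose and 2 fell after siMYCN, and 1 rose and 2 fell after siHAND2, with list medians of 0.00 and -0.02 beside 0.06 and 0.04 for all genes. With median-ratio rescaling 1 rose and 5 fell after siMYCN, and none rose and 4 fell after siHAND2. With quantile normalization these counts were 2 and 5, and 0 and 4. CKAP2L, a spindle protein, rose from 74.2 ± 2.25 to 88.8 ± 1.58 CPM after siMYCN (log2 fold change 0.26, limma adjusted p = 0.000236), and BIRC5, the passenger protein survivin, fell from 181.3 ± 2.91 to 161.5 ± 6.39 CPM (-0.17, limma adjusted p = 0.0044). Of 20 S phase genes, 2 rose and 2 fell after siMYCN, and 5 rose and 1 fell after siHAND2. After siMYCN none of the 20 rose under either rescaling, and 4 fell with median ratios and 3 with quantile normalization, while 3 rose and 1 fell after siHAND2 under both. After siHAND2, RRM2, the small subunit of ribonucleotide reductase, rose from 174.0 ± 3.34 to 208.4 ± 4.85 CPM (0.26, limma adjusted p = 8.6e-05), and CCNE2, a G1/S cyclin, from 13.5 ± 1.45 to 17.7 ± 1.2 CPM (0.38, limma adjusted p = 0.00176).

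**Figure D4:**
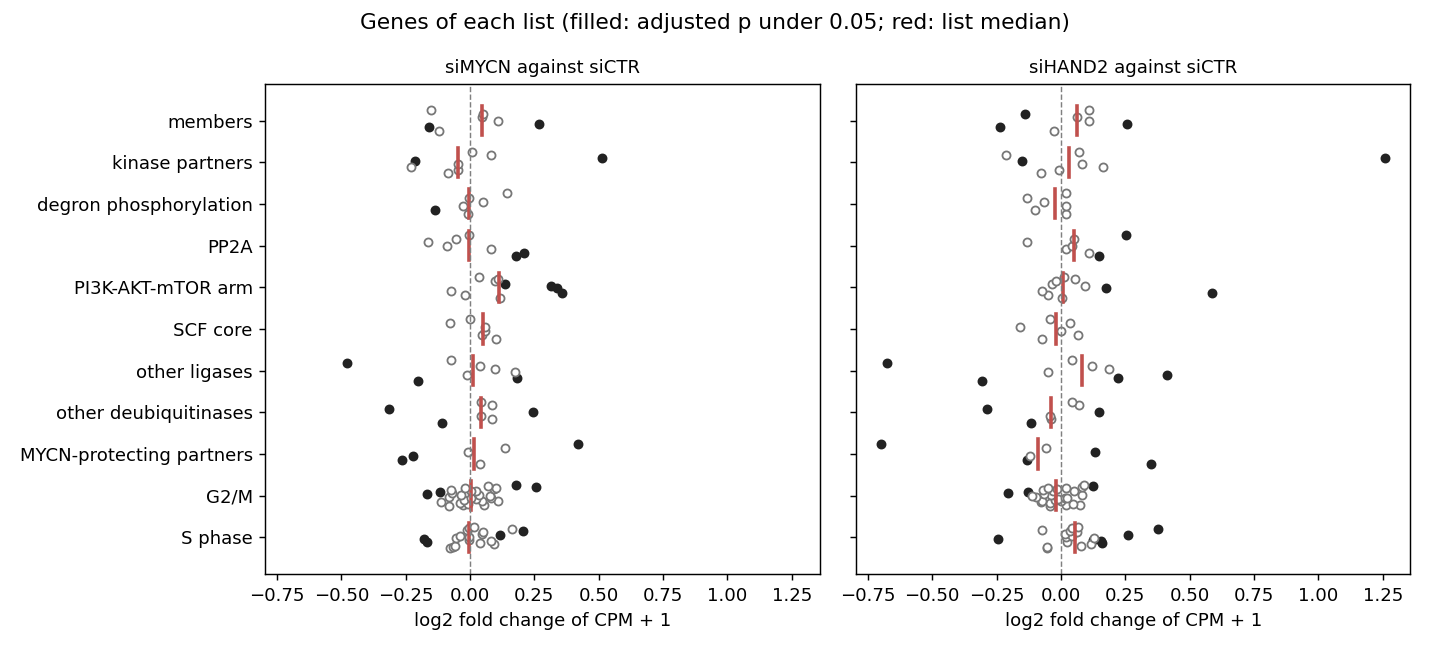
log2 fold change of CPM + 1 (horizontal axis) of every tested gene in the members and in 10 lists (rows), for siMYCN and siHAND2 against siCTR; filled points have an adjusted p under 0.05 and red bars are list medians. PLK2 is the filled point at 1.26 after siHAND2, and the G2/M points spread from -0.17 to 0.26 after siMYCN and from -0.20 to 0.12 after siHAND2, around medians near 0.

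The libraries held 21.1 to 32.7 M assigned reads, and 795 (USP28) to 10271 (HUWE1) reads stood behind each member's value, so counting error was at most 3.55% of a value. Correlations between libraries of a group were 0.994 to 0.998. Genes overlapping the 7 members were at 1.2 CPM or less. Summed over 8 noradrenergic neuroblastoma markers, all detected, libraries ranged from 1370 to 1490 CPM in siCTR, 1870 to 1940 in siMYCN and 1470 to 1630 in siHAND2. Leukocyte markers were under 1 CPM in every library, endothelial sums were at most 1.19 CPM and Schwann sums at most 2.45. The 1 epithelial marker among the deposited genes was at 2.79 to 3.95 CPM. Of the 6 fibroblast markers, 1 was under 1 CPM in every library, and the rest reached 1 CPM in at least 1 library. The 6 together summed to 101 to 107 CPM in siCTR, 124 to 132 in siMYCN and 252 to 289 in siHAND2, and their part in the differences above was not tested.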

How the data were processed

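RNA from LAN5 cells was sequenced in 9 libraries, 3 per siRNA. The authors deposited gene-level CPM, scaled to each library's total. The submitters' processing notes name STAR 2.5.1, Partek, GRCh37 and hg19, with no roles. Gene starts in the table lay within 5000 bases of GRCh38 starts for 91.4% of 18215 shared symbols, against 5.6% of 18635 for GRCh37, so coordinates are given as GRCh38. Between 79.3% and 80.8% of low values (up to 20 steps) were whole multiples of a read within 0.02 of a step, short of 95%, so no count test was run. Depth was read from that step.

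A gene was tested if 3 or more of the 9 libraries reached 1 CPM (14495 genes, with 10589 left out), with limma 3.58.1 in R 4.3.3 on log2(CPM + 1), a mean per group, an intensity trend, two-sided, Benjamini-Hochberg adjusted, threshold 0.05. The code was tested on simulated data, where it recovered 7.1% of log2 changes of 0.25, 82.2% of 0.5 and 97% of 1. The simulation changed 197 to 199 of the tested genes, far fewer than were called here. It also gave every gene the same spread beyond counting error, set beforehand and not estimated from these libraries. Its shares therefore do not carry over directly to the fits above. Levels per kb used the GENCODE v44lift37 canonical transcript. AURKA and PLK1 relative to the G2/M list were tested by exact permutation. Named genes were the members, MYCN, HAND2, at most 3 genes per list by smallest adjusted p against siCTR, and the 2 most correlated genes per member. Members and lists were chosen with earlier results of these data known. Alternatives changed the pseudocount, filter, scaling, trend, samples fitted and replicate block, and left out each library. For list genes they were applied after the data were seen. Some genes of the lists are not reported here, and counts leave them out.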

Additional observations from a re-analysis of the deposited data

How the results depend on the processing

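Over the 18 alternatives, all counts of called genes stayed within 1.5 times the reported ones. Leaving out 1 library gave 4013 to 5854 calls in siMYCN against siCTR, 3075 to 4290 in siHAND2 against siCTR and 2909 to 3940 in siHAND2 against siMYCN. The labels do not say whether replicate numbers pair the libraries. Residuals of same-numbered libraries correlated at -0.04 to 0.305, and those of differently numbered libraries at -0.296 to 0.141. Set against siMYCN, each siCTR library correlated best with its own number (0.166, 0.076 and 0.177). Set against siHAND2, replicates 1 and 3 of siCTR and siMYCN did too (0.133 to 0.305). Replicate 2 of siCTR (0.039) and of siMYCN (-0.04) did not. Pairing was not tested. The fit with the replicate block called 5895, 5089 and 4689 genes in those comparisons, against 5209, 4339 and 3892 without it. FBXW7 passed the threshold under the block (limma adjusted p = 0.0451 after siMYCN and 0.0487 after siHAND2), as did USP28 after siMYCN (0.0310).

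Member values changed sign in these alternatives only where they were near 0. With median-ratio rescaling the log2 fold change after siMYCN was -0.0111 for HUWE1 and -0.00888 for USP7, and with quantile normalization -0.0246 for USP7. With median-ratio rescaling, GSK3B in siHAND2 against siMYCN was 0.0041. Leaving out 1 library gave -0.0187 to 0.0818 for HUWE1 after siMYCN and -0.0471 to 0.00247 for AURKA after siHAND2. In siHAND2 against siMYCN it gave -0.0613 to 0.0264 for GSK3B, -0.0323 to 0.0512 for FBXW7 and -0.0178 to 0.0826 for HUWE1. Relative to the G2/M list, AURKA in siHAND2 against siCTR was 0.012 with the list median and -0.036 to 0.0079 when 1 library was left out, and PLK1 in siHAND2 against siMYCN was -0.106 to 0.0087. The cause of these turns was not tested. Of 37 called values of named list genes, 27 were called in every alternative and 10 were lost in at least 1.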
